A study of Mus musculus with 8 samples.

Results

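The canonical histone genes of the mouse, those whose symbols run from Hist1h to Hist4h, were read in total RNA of pancreatic tumours. They were chosen by symbol alone, which gave 20 of the 19129 genes tested. The tumours were isografts from 8 mice, 4 labelled MEKi and 4 labelled control. The MEKi mice had trametinib for 7 days, a drug that blocks MEK1 and MEK2 and so the activation of ERK. The sources used here do not give what the control mice received, the strain, sex and age of the mice, the alleles of the grafted tumour cells or the site of grafting. Each library came from 1 mouse, and an isograft also holds cells of its host.

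Histones pack DNA into nucleosomes: H2A, H2B, H3 and H4 form the core and H1 binds the linker. Canonical histone genes lie in clusters and are known for making most of their messenger RNA in S phase, when new DNA must be packed. These messages usually carry no poly(A) tail and end just after a short stem-loop, which is bound by the stem-loop binding protein Slbp. Some canonical histone genes are also known to give polyadenylated messages, which extend past the stem-loop. Variants such as H2afz and H3f3b are made through the cell cycle, from genes that mostly stand alone and give polyadenylated messages.

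The GENCODE vM21 annotation of the GRCm38 build holds 70 symbols of this form, 67 of them protein coding and 3 pseudogenes. The 20 with a value here are all coding, and the 47 other coding genes were not analysed here. The stem-loop is the feature that sets these messages apart, so its sequence is shown for members of different classes and clusters, with capitals for the 16-base stem-loop and 5 flanking bases on each side in lower case.
Hist1h1c: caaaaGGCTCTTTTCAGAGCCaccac
Hist3h2a: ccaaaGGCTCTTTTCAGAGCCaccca
Hist2h3c2: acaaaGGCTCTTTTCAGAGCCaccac
Hist1h4i: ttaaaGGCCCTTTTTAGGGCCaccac
Hist1h4h: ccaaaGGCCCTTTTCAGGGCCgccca
Hist1h4j: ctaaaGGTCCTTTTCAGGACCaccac
The stem-loops lie at chr13:23739512-23739527 on the plus strand in Hist1h1c, chr11:58955172-58955187 on the plus strand in Hist3h2a and chr3:96238485-96238500 on the minus strand in Hist2h3c2. Those of the H4 genes lie at chr13:22040966-22040981 on the minus strand in Hist1h4i, chr13:23531458-23531473 on the plus strand in Hist1h4h and chr13:21735437-21735452 on the plus strand in Hist1h4j. All are in GRCm38 and are written in the sense of the message.

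The histone stem-loop, a stem that begins with G and ends with C around a loop rich in T, was searched for on the sense strand of every annotated transcript of the canonical histone genes. A match was found in 16 of the 20 genes measured and in 28 of the 47 other coding genes. These counts depend on the annotation, because some genes are annotated only to the stop codon, where no match could be found. Examples are Hist1h4k of the measured genes, with 312 exon bases and 309 coding bases, and Hist1h2bl of the others, with 381 and 378. The pattern searched for already fixed most base pairs of the stem, and the pairs it left free were complementary in every match. In the genes measured, the match began 24 to 41 bases after the stop codon, with a median of 30.5. All 11 measured genes of classes H1, H2A, H2B and H3 with a match carried one and the same stem-loop, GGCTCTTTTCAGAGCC, and none of the 5 H4 genes did: Hist1h4h and Hist1h4d carried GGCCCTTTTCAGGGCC, Hist1h4i and Hist2h4 carried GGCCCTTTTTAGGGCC, and Hist1h4j carried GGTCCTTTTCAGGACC. No match was in the annotated transcripts of Hist1h2bc, Hist2h2be, Hist1h4k and Hist1h1b. Within the 100 bases after the stop codon, a match occurred in 25 of the 31 annotated histone genes with a window of that length, and in 3 of 19892 other genes (0.0151%). Those 3 were H2afx, H2bfm and Lrrc75b.

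The histone genes with a value here were annotated with longer transcripts than the other canonical histone genes. Their median exon length was 1202.5 bases, against 485 bases for the 47 others. Among genes with a stem-loop, 15 of the 16 measured had more than 100 annotated bases after it, with a median of 805 bases. Of the 28 others, 7 had more than 100, with a median of 36 bases. The measured genes also shared less sequence with other genes: a median of 23.3% of their 50-base windows recurred in another annotated gene, against 60.4% for the 47 others. This share is taken over all annotated windows of a gene, so it is not independent of annotated length. The sources used here do not name the counting step behind the table, and the part that annotation and shared sequence play in which genes have a value was not tested.

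**Figure D1:**
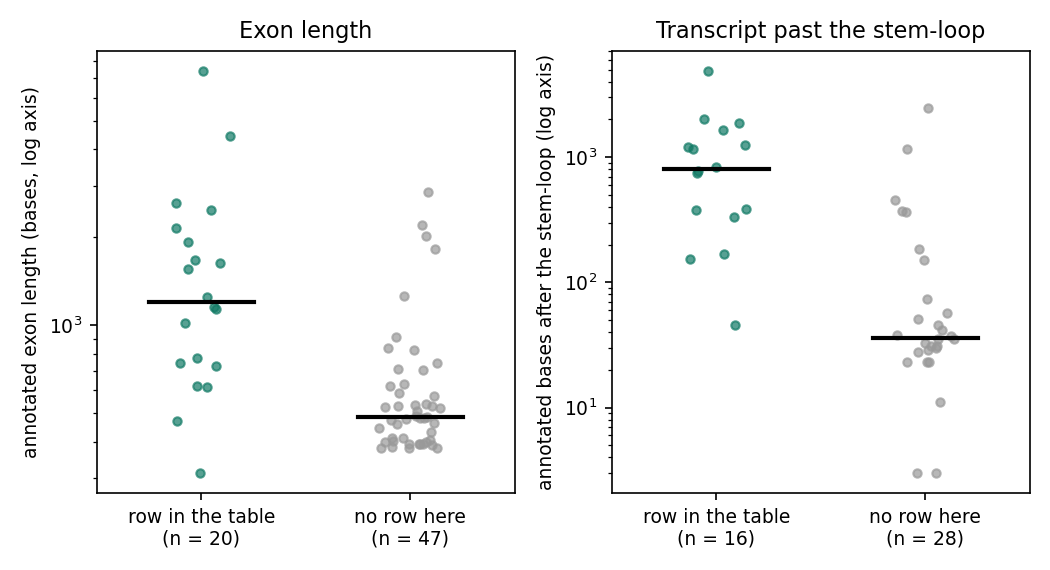
Annotated exon length (left) and annotated bases after the stem-loop (right), in bases on log axes, for canonical histone genes with a row in the table and without one. Each point is a gene and each bar a median: 1202.5 against 485 bases of exon, and 805 against 36 bases after the stem-loop.

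In the RefSeq promoters (GRCm38.p6), 300 bases around the gene start, 17 of the 20 genes could be matched. Hist1h2bc, Hist2h2be and Hist2h4 could not. The letters CCAAT, searched on both strands, occurred in 13 of the 17, against 37.9% of 27025 gene promoters. Those without CCAAT were all H4 genes, Hist1h4h, Hist1h4i, Hist1h4j and Hist1h4k, while the H4 gene Hist1h4d had it. TATAAA, also on both strands, occurred in 11 of the 17, against 14.2% of gene promoters. Matches of letters are a description and were not tied to any factor.

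Histone reads were few in every tumour. All 20 genes together took 1758, 1236, 1904 and 2970 reads in MEKi libraries 1 to 4, against 1425, 1821, 1292 and 1603 reads in control libraries 1 to 4. The reads in tested genes numbered 20182531 to 38569550 per MEKi library and 20090101 to 31797960 per control library. Per 1000000 reads in tested genes, the histone genes took 64.8, 61.2, 63.6 and 77.0 in MEKi libraries, against 61.9, 57.3, 58.1 and 79.8 in control libraries. The ranges overlapped, with MEKi 4 and control 4 the highest of their labels. As a share of reads, the mean was 0.00667% ± 0.000705 in MEKi tumours and 0.00643% ± 0.00105 in control tumours (SD, n = 4 each). The lowest share, in control 2, had a 95% exact binomial interval of 0.00547% to 0.00600%, and the highest, in control 4, of 0.00759% to 0.00838%. Such intervals cover counting error only.

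Single genes outside the canonical set took more reads than all 20 together. H2afz, the gene of the variant H2A.Z, had 5708 to 8562 reads in MEKi libraries, against 4729 to 8253 in control libraries. Mcm6, a subunit of the helicase that opens DNA for replication, had 4200 to 7255 reads in MEKi libraries and 4126 to 6240 in control libraries. The 12 measured genes of a list of replication-independent variants together took 26.1 to 30.5 reads per canonical histone read in MEKi libraries, against 25.8 to 28.6 in control libraries.

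Most histone reads came from a few genes of the Hist1 cluster on chromosome 13. That cluster held 15 of the 20 genes and 83.3% of the reads summed over libraries. Hist2, on chromosome 3, held 3 genes and 11.9% of the reads. Hist3, on chromosome 11, held 2 genes and 4.78% of the reads. The 1 coding gene annotated to Hist4 was not analysed here. By annotation, a value was at hand for 15 of 54 coding genes in Hist1, 3 of 10 in Hist2 and 2 of 2 in Hist3.

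By class, in reads not divided by length, H2B led with 50.7% of the histone reads from 6 genes. The linker class H1 followed with 35.2% from 4 genes. Both shares came mostly from 1 gene: Hist1h2bc gave 5038 of 7107 H2B reads and Hist1h1c 4657 of 4931 H1 reads. H4 gave 8.24% from 6 genes, H2A 4.45% from 2 genes and H3 1.38% from 2 genes. The classes were not covered alike: a value was at hand for 4 of 6 annotated coding genes of H1 and 6 of 18 of H2B. It was at hand for 6 of 13 of H4, 2 of 18 of H2A and 2 of 12 of H3. A gene was counted as read in a library at 10 or more reads. By that measure 8 of the 20 genes were read in all 8 libraries: Hist1h2bc, Hist1h2be, Hist1h2bg and Hist2h2be of H2B, Hist1h4i and Hist2h4 of H4, Hist1h1c of H1, and Hist3h2a of H2A. No H3 gene was among them. Hist1h1e, of H1, stayed under 10 reads in every library, with 6 at most, and the other 11 genes were read in some libraries.

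Levels between genes were compared as RPKM, reads per kilobase of exon per 1000000 reads in tested genes. Hist1h2bc, an H2B gene, was the highest on average. It had 20.3, 24.05, 21.8 and 17.3 RPKM in MEKi libraries 1 to 4, against 21.6, 18.2, 18.3 and 25.9 RPKM in control libraries 1 to 4. Hist1h1c, which codes for the linker histone H1.2, had 12.2, 11.3, 13.0 and 18.5 RPKM in MEKi libraries, against 12.8, 13.3, 12.2 and 16.5 RPKM in control libraries. Hist1h4i, an H4 gene, had 5.73, 4.16, 2.80 and 3.17 RPKM in MEKi libraries, against 4.54, 4.54, 2.66 and 4.93 RPKM in control libraries. For each of these 3 genes the labels overlapped. Hist1h2bc lay above Hist1h1c in 7 of 8 libraries, MEKi 4 being the exception, and Hist1h1c lay above Hist1h4i in 8 of 8.

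That step, between Hist1h1c and Hist1h4i, was the only one in the order of the 20 genes where the ranges of neighbours over the 8 libraries did not overlap. Below it the means ran down from 4.07 RPKM for Hist1h4i through 2.45 for Hist2h2be, 1.90 for Hist1h4k, 1.45 for Hist1h4h, 1.29 for Hist1h2bg and 1.16 for Hist3h2a to 0.0760 for Hist1h1e. Hist2h3c2, the highest H3 gene, averaged 0.564 RPKM, and Hist3h2ba, the H2B gene of the Hist3 cluster, 0.866 RPKM. Across the table, 17 of the 20 genes lay below the median level of all genes, 3.65 RPKM, and the median of the 20 was 0.581 RPKM. Hist1h2bc lay above 87.4% of genes, Hist1h1c above 80.1% and Hist1h4i above 52.4%. With coding length in place of exon length, Hist1h2bc and Hist1h1c again came first and Hist2h2be passed Hist1h4i. Lower down the order changed more: Hist1h2be rose from rank 15 to 6, and Hist1h4k fell from rank 5 to 9. The order below the leading genes thus depends on the length used.

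**Figure D2:**
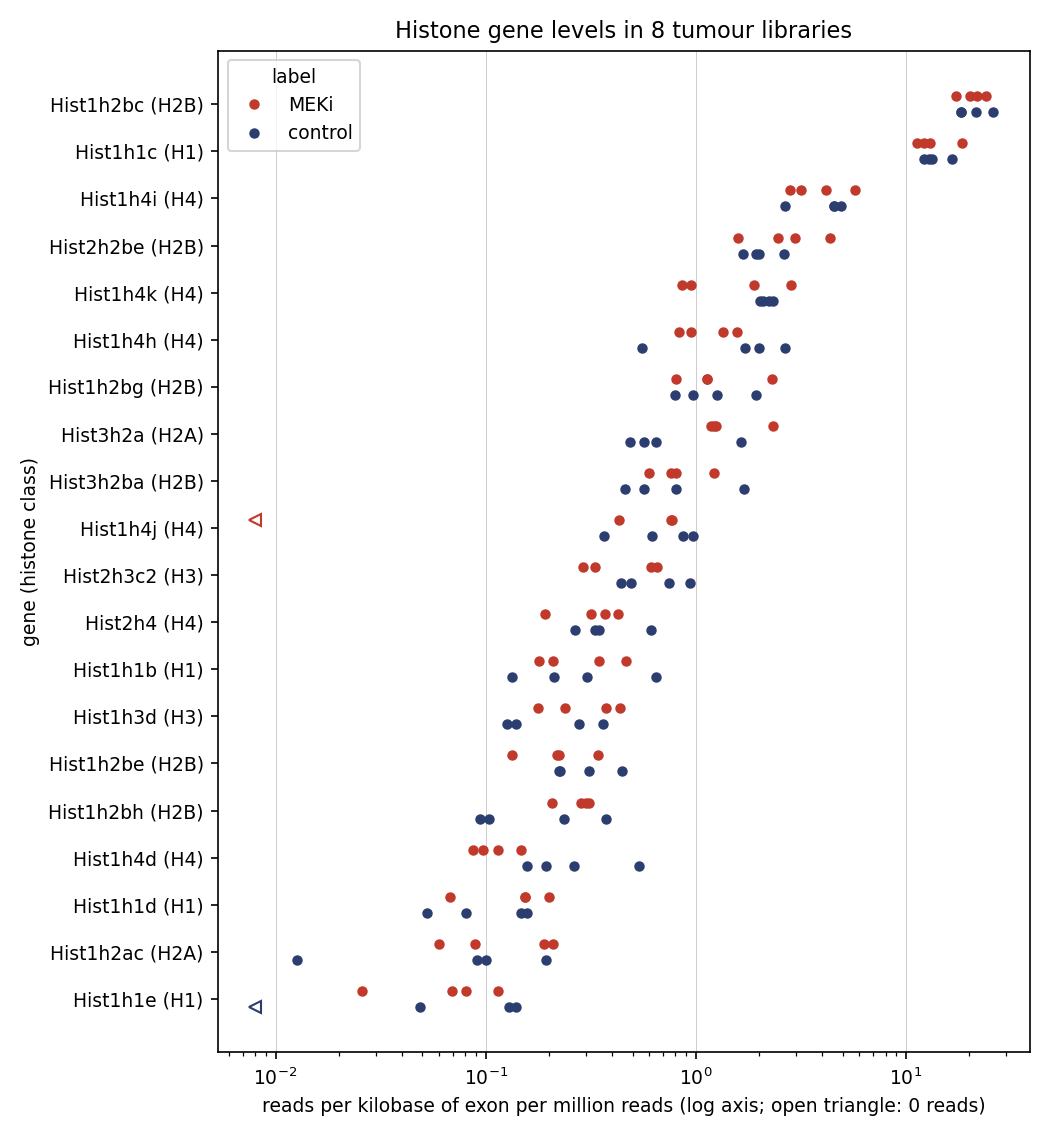
Level of each canonical histone gene in each library, in RPKM on a log axis, with MEKi libraries (red) above control libraries (blue) on each row and the histone class in brackets. Hist1h2bc and Hist1h1c stand apart at 11.3 RPKM or more in every library, and open triangles mark a library with 0 reads.

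Counted in reads, without division by length, the same genes led in each tumour. Hist1h2bc, Hist1h1c and Hist2h2be together held 77.5% to 81.6% of the histone reads in MEKi libraries, against 78.2% to 80.8% in control libraries. The other 17 genes shared 235 to 644 reads in MEKi libraries and 274 to 351 in control libraries, so most of them rested on few reads per library. A library listed at 0 reads allows up to 3 counts: for Hist1h4j in MEKi 2 that is 0.192 RPKM, and for Hist1h1e in control 1 it is 0.0676 RPKM.

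Some histone genes share sequence or position, and their reads are uncertain to that degree. Hist1h2bc is annotated with 2 exons, and 30.1% of its 50-base windows recurred among 100 other genes. Hist1h4k, with 312 annotated bases, shared 71.5% of its windows with 10 other genes, and Hist2h3c2 shared 63.5%. Hist2h2be, in contrast, shared none and Hist2h4 1.01%. Hist3h2a overlaps Trim17, which had 3 to 14 reads where Hist3h2a had 27 to 193. The long annotation of Hist1h2be, 4446 exon bases, overlaps that of Hist1h1e.

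The genes also differed in how much they varied among tumours. The variance of Hist2h2be over the 8 libraries was 27.3 times that of counting noise, that of Hist3h2a 21.5 times, of Hist1h1c 20.6 times, of Hist1h2bc 12.8 times and of Hist1h4i 5.81 times. For the other 15 genes the ratio ran between 1.45 and 4.14. At the same relative spread this ratio rises with the number of reads, and the genes named with it have the most reads of the 20. The order differed in relative terms. Hist1h2bc varied least, with a coefficient of variation of 14.4% in level, and Hist1h1c next, with 17.97%. Hist1h4d, a gene of few reads, varied most, with 73.8%. MEKi 4 held the highest value of 6 of the 20 genes and MEKi 2 the lowest of 7.

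Features of the whole series bear on what follows. All 10 epithelial tumour markers were read in the libraries, with list means of 12.21 to 13.18 in MEKi libraries and 12.93 to 13.07 in control libraries, on the log2 scale deposited by the authors. Acinar cell markers (14 genes) took 0.00121% to 0.260% of reads in MEKi libraries, against 0.0222% to 12.3% in control libraries, and the 2 highest shares, 4.25% and 12.3%, were in control 2 and control 3. A list of 20 ERK output genes, which a MEK inhibitor lowers, had means of 9.11, 10.70, 10.44 and 9.75 in MEKi libraries, against 10.62, 10.61, 9.30 and 9.10 in control libraries. It did not separate the labels, so comparisons below are between the libraries labelled MEKi and those labelled control. MEKi 4, the deepest library, had the lowest epithelial mean and the lowest Mcm6 value.

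Between the libraries labelled MEKi and those labelled control, no canonical histone gene passed the test. With limma's moderated test on the log2-scale values and Benjamini-Hochberg adjustment over all 19129 genes, 0 of 20 were called at an adjusted p under 0.05, against 0.00523% of all genes (1 gene, 9530002B09Rik, which is lower in the MEKi libraries and is named for being the 1 call). At an unadjusted p under 0.05, limma found 1 of 20 histone genes and 338 of 19129 genes (1.77%). The estimates, MEKi minus control, were positive for 7 genes and negative for 13, with a median of -0.07 on the log2 scale beside 0.01 for all genes. The scale compresses low values, so it understates differences of genes with few reads.

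The H1 and H2B genes with the most reads differed little between labels. Hist1h2bc had values of 9.34, 9.61, 9.41 and 9.13 in MEKi libraries, against 9.46, 9.33, 9.48 and 9.64 in control libraries. The labels overlapped and MEKi 4 was the lowest. The difference was -0.10 with a standard error of 0.13, and its 95% interval ran from -0.39 to 0.19. Hist1h1c had 9.07, 9.02, 9.14 and 9.60 in MEKi libraries, against 9.18, 9.31, 9.34 and 9.44 in control libraries, again with overlap, and here MEKi 4 was the highest of all. Its difference was -0.11 with a standard error of 0.15 and an interval from -0.44 to 0.22. Without MEKi 4 the difference of Hist1h1c was -0.24, with an adjusted p of 0.9997 by limma.

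Hist2h2be, an H2B gene, had 8.00, 7.40, 7.79 and 8.43 in MEKi libraries, against 7.59, 7.52, 7.80 and 7.85 in control libraries. MEKi libraries held both the highest and the lowest value. The difference was 0.22 with a standard error of 0.22, and it was 0.04 without MEKi 4 and 0.39 without MEKi 2.

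Hist3h2a, the H2A gene with the most reads, had the largest positive estimate. Its values were 6.96, 6.96, 6.97 and 7.54 in MEKi libraries, against 6.52, 6.38, 6.55 and 7.20 in control libraries. Control 4 alone reached into the MEKi range and lay above 3 of its 4 values. The difference was 0.44 with a standard error of 0.22, an interval from -0.04 to 0.93, an unadjusted p of 0.068 and an adjusted p of 0.9996 by limma. H2A as a class took 4.38%, 4.37%, 4.94% and 7.17% of the histone reads in MEKi libraries, against 3.02%, 1.87%, 2.48% and 4.74% in control libraries, with overlap through control 4. Hist3h2a gave 558 of the 623 reads of this class, so the class shares largely repeat its own counts. Of the 3 controls with low Hist3h2a, control 2 and control 3 held 4.25% and 12.3% acinar reads and control 1 held 0.0547%. With the acinar marker mean as a covariate the difference of Hist3h2a was 0.36. Without both control 2 and control 3 the difference of Hist3h2a was 0.25 with a standard error of 0.27, and without MEKi 4 it was 0.30. Without control 4 it was 0.62, with an interval from 0.20 to 1.05, an unadjusted p of 0.0090 and an adjusted p of 0.9999 by limma. That unadjusted p was the smallest of the 18 alternatives for Hist3h2a. By limma voom on the recovered reads, where low counts are not compressed, the difference of Hist3h2a was 1.03 with an adjusted p of 0.882.

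All 6 H4 genes measured had negative estimates, beside 13 of the 20 canonical histone genes and 9268 of 19129 genes. Some H4 genes share sequence, Hist1h4k in 71.5% of its windows, so the 6 are not separate observations. Hist1h4i had 7.37, 7.11, 6.75 and 6.85 in MEKi libraries, against 7.19, 7.25, 6.88 and 7.21 in control libraries, with overlap and a difference of -0.11 (standard error 0.17). Hist1h4k differed by -0.19, Hist1h4h by -0.20, Hist1h4j by -0.27 and Hist2h4 by -0.11. With all 8 libraries the intervals of these 5 genes held 0. Without MEKi 4, Hist1h4k was at -0.28 with an unadjusted p of 0.042 and an adjusted p of 0.9997 by limma. That unadjusted p was the smallest of its 17 alternatives. Without control 1, Hist1h4h was at -0.35 with an unadjusted p of 0.020, also the smallest of its 17 alternatives, and an adjusted p of 0.9998 by limma. With 1 library left out at a time, Hist1h4i ran between -0.23 (without MEKi 1) and -0.02 (without MEKi 3). Hist1h4j ran between -0.37 (without MEKi 4) and -0.06 (without MEKi 2), and Hist2h4 between -0.16 (without control 1) and -0.04 (without control 4).

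Hist1h4d, also an H4 gene, was the only canonical histone gene whose labels did not overlap. It had 3, 2, 5 and 5 reads in MEKi libraries, against 14, 7, 4 and 6 reads in control libraries. On the log2 scale, which is scaled to depth, that was 5.52, 5.50, 5.61 and 5.55 in MEKi libraries, against 6.06, 5.71, 5.69 and 5.77 in control libraries. All MEKi values on that scale lay below all control values, as for 1 of 20 histone genes in either direction and 1.27% of all genes. The difference was -0.26 with a standard error of 0.11, an unadjusted p of 0.036 and an adjusted p of 0.9996 by limma, and without control 1 it was -0.18 with an unadjusted p of 0.083. At 14 reads or fewer per library, counting noise is large.

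For H3, Hist2h3c2 had 17, 6, 20 and 13 reads in MEKi libraries, against 22, 16, 17 and 9 in control libraries, with overlap and a difference of -0.18 (standard error 0.13) on the log2 scale. Hist1h3d had 6, 6, 14 and 21 reads in MEKi libraries, against 4, 5, 10 and 7 in control libraries, with a difference of 0.08 (standard error 0.12).

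**Figure D3:**
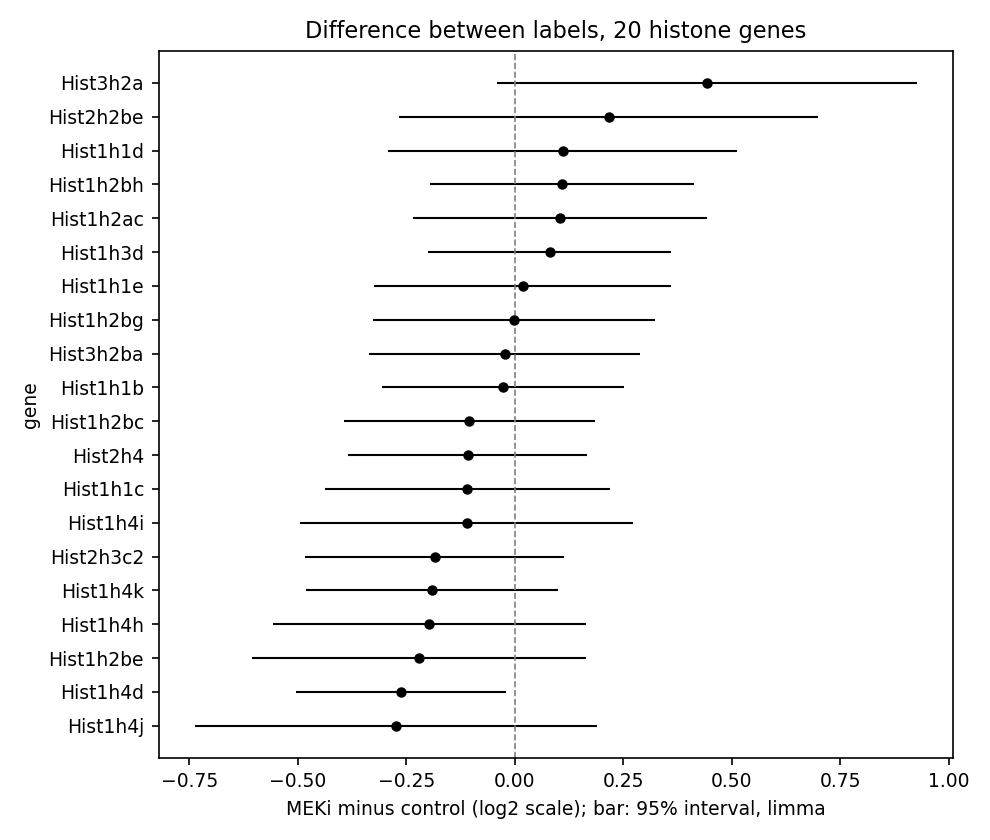
Difference of each canonical histone gene between labels, MEKi minus control on the log2 scale, with 95% intervals from limma (n = 4 each). All intervals but that of Hist1h4d hold 0, and no gene passed the test after adjustment over all genes.

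The second comparison asked how the histone genes moved with S-phase genes from tumour to tumour. Mcm6 had values of 12.71, 12.40, 12.24 and 11.97 in MEKi libraries, against 12.51, 12.41, 12.48 and 12.78 in control libraries, with MEKi 4 the lowest and control 4 the highest. For each gene a slope on Mcm6 was fitted within labels, in log2 units per log2 unit of Mcm6. The scale compresses low values, so the sizes of slopes of genes at different levels are not on equal terms. The points are 8 libraries that share depth and cell content between genes, so slopes of different genes are not independent.

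No canonical histone gene had a slope that passed the test. By limma with Benjamini-Hochberg adjustment, 0 of 20 were called, and 0 of all 19128 genes (0.0%). At an unadjusted p under 0.05 there were 0 of 20 histone genes, against 1633 of all genes (8.54%). Slopes were positive for 11 and negative for 9 of the 20, between -0.51 for Hist1h2be and 0.65 for Hist1h4i, with a median of 0.00 beside -0.03 for all genes. By limma voom on the recovered reads, the median slope was 0.20 for the histone genes and 0.15 for all genes.

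The S-phase list, of genes for the replication fork, nucleotide supply and entry into S phase and also Slbp, had all 35 slopes positive. Their median was 0.83, and 24 had an unadjusted p under 0.05, though limma called 0 after adjustment. The smallest adjusted p was 0.382, for the helicase subunit Mcm7, whose slope was 0.96 with a standard error of 0.17. Pcna, the sliding clamp of the replication fork, had 12.42, 12.02, 12.17 and 11.54 in MEKi libraries, against 12.05, 12.04, 12.13 and 12.37 in control libraries. Its lowest value was in MEKi 4, as for Mcm6, and its highest in MEKi 1, just above control 4. Its slope was 1.05 (standard error 0.23). The slopes of some other lists also lay mostly on one side. They were positive for 9 of 10 T cell markers, with a median of 1.03, and negative for 9 of 10 endothelial markers, with a median of -0.91. They were negative for 18 of 20 ERK output genes, with a median of -1.14, and limma called 0 in each list. The difference between the slopes of the S-phase and histone genes was not tested, and the S-phase genes are read at higher levels than the histone genes, with a median of 8.83 RPKM. Fen1, the flap endonuclease of lagging-strand synthesis, is the S-phase gene with the smallest p in the label comparison and lies in the range of the histone genes, at 17 to 55 reads per library. Its slope was 0.77 with a standard error of 0.32. The counts depended on the library: without MEKi 1, whose Mcm6 value was next to the highest, 34 of 35 slopes stayed positive and 8 had an unadjusted p under 0.05, with a median of 0.65.

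**Figure D4:**
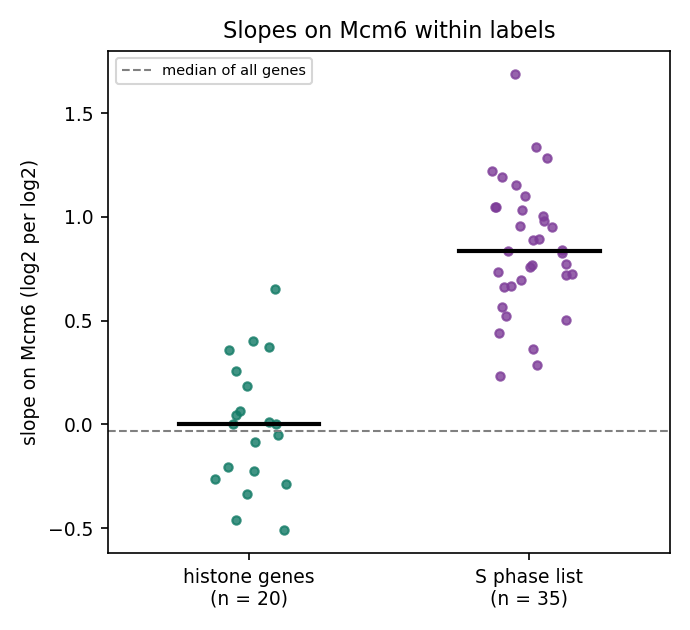
Slope on Mcm6 within labels for each canonical histone gene and each gene of the S-phase list, in log2 units per log2 unit. Bars are medians, 0.00 and 0.83, and the dashed line is the median of all genes, -0.03; no gene of either set passed the test after adjustment.

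Hist1h4i had the highest slope of the 20, 0.65 with a standard error of 0.35, an unadjusted p of 0.101 and an adjusted p of 0.668 by limma. The 3 tumours with the lowest Hist1h4i values, MEKi 3, MEKi 4 and control 3, included the 2 with the lowest Mcm6. Hist1h2bc had a slope of 0.40 (standard error 0.27), with its lowest value in MEKi 4 and its highest in control 4, the tumours with the lowest and the highest Mcm6. Hist1h4h had 0.37 (standard error 0.38) and Hist2h4 had 0.36 (standard error 0.27).

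Hist1h1c ran the other way, at -0.46 with a standard error of 0.32, as did Hist2h2be, at -0.34 (standard error 0.52), and Hist1h2be, at -0.51 (standard error 0.38). Hist3h2a had a slope of -0.08 (standard error 0.53), Hist1h2bg of -0.22 (standard error 0.35) and Hist1h4j of 0.00 (standard error 0.52). The slope of Hist1h4j was -0.81 without MEKi 1 and 0.72 without MEKi 4.

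The direction of several of these slopes rested on MEKi 4, which had the lowest Mcm6 and the highest Hist1h1c, Hist2h2be and Hist3h2a. Without MEKi 4 the slope of Hist1h1c was 0.11, of Hist2h2be 0.67, of Hist3h2a 0.92, of Hist1h2bg 0.41 and of Hist1h4k 0.31. Hist2h3c2 was at -0.22 and Hist1h4i kept its sign at 0.82. Over the 20 genes without MEKi 4, 14 slopes were positive, with a median of 0.25, and limma called 0. The S-phase list without MEKi 4 had 35 of 35 positive and a median of 0.80. Without MEKi 1, 8 of the 20 histone slopes were positive, with a median of -0.03, and limma called 0. Hist1h2bc was then at 0.93 (unadjusted p 0.030, adjusted p 0.9991 by limma) and Hist3h2a at 0.24. MEKi 4 was also the library with the lowest epithelial markers, among them Cldn7 at 7.08 where the other 7 libraries had 9.81 to 10.36. The part of cell content in the histone slopes was not tested beyond the fits with a marker mean as a covariate, where the median slope was -0.00 with acinar markers and -0.13 with macrophage markers.

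**Figure D5:**
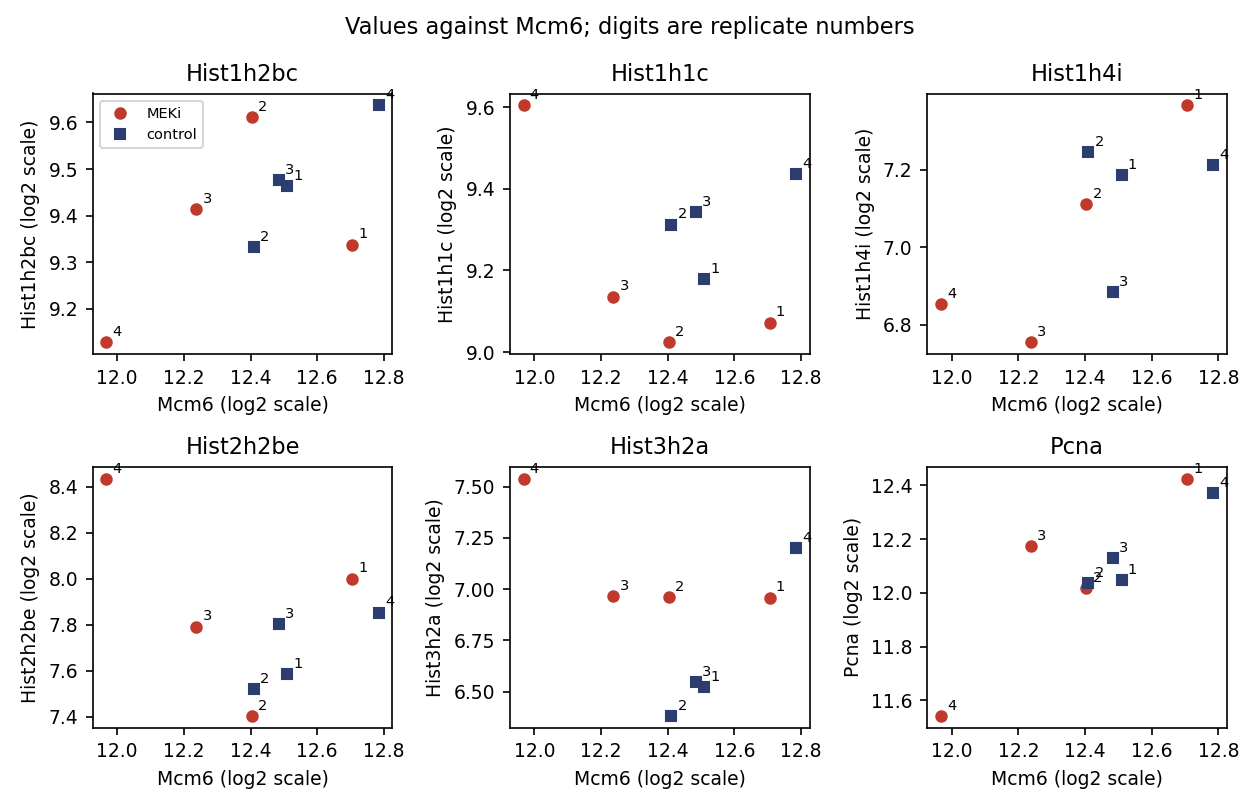
Values of 5 canonical histone genes and of Pcna against Mcm6, all on the log2 scale, for MEKi libraries (red circles) and control libraries (blue squares); digits are replicate numbers. MEKi 4, at a Mcm6 value of 11.97, is the lowest for Pcna and Hist1h2bc and the highest for Hist1h1c, Hist2h2be and Hist3h2a.

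Genes that serve histone messages were set beside the histone genes. The list holds 30 genes for their transcription and 3′ end processing, among them the coactivator Npat and Slbp. In the label comparison 0 of 30 passed the test, 14 estimates were positive and 16 negative, with a median of -0.01. On Mcm6, 22 slopes were positive and 8 negative, with a median of 0.28, 0 called and 4 with an unadjusted p under 0.05, all positive. The smallest p belonged to Snrpd3, a core protein of spliceosomal and U7 small nuclear ribonucleoproteins, with a slope of 1.52 (standard error 0.22, adjusted p 0.382 by limma). Slbp had a slope of 0.29 (standard error 0.27) and Npat of -0.39 (standard error 0.26). Slbp is counted in the S-phase list as well.

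Among the 21 histone chaperones, proteins that carry histones to and from DNA, 0 were called in either fit. On Mcm6, 14 of their slopes were positive and 7 negative, with a median of 0.27. Nasp, which binds H1 and stores H3 and H4, had the smallest p, at a slope of 1.05 (standard error 0.19, adjusted p 0.382 by limma).

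The 12 replication-independent variants had 6 positive and 6 negative slopes, with a median of -0.00 and 0 called. H2afz stood at 1.05 (standard error 0.32, unadjusted p 0.0099, adjusted p 0.448 by limma). Its value in MEKi 4 was 11.94, against 12.68 to 12.94 in the other 7 libraries. H3f3b, which codes for the variant H3.3, had a slope of -0.05 (standard error 0.32), and H1f0, which codes for the linker variant H1.0 known from resting and differentiated cells, of 0.10 (standard error 0.42).

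The 23 genes of G2 and mitosis had 14 positive and 9 negative slopes, a median of 0.07 and 0 called. Mki67, the proliferation marker, had a slope of -0.37 (standard error 0.39). In bulk tumours, fewer cells of a kind and less RNA per cell cannot be told apart, for the histone genes and for these lists alike.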

How the data were processed

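RNA of 8 tumour isografts, extracted with TRIzol and a column kit from samples of good RNA integrity, was sequenced as TruSeq Stranded Total RNA libraries, per the labels' protocols. The authors deposited 1 table of log2-scale values, floor 5.12, with variance-stabilised values by its title. The submitters' processing notes name STAR 2.5.3a, DESeq2 1.18.1 and GRCm38. None of these sources gives the counting step, its strand setting, the annotation or the row filter.

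Of 19431 rows, 32 had no symbol (0.101% to 0.167% of reads per library) and were left out. Where a symbol had more than 1 row (86 symbols), only its row of highest mean entered. That gave 19129 genes, and 19056 matched reference names. Inverting the transformation gave whole reads for 100.0% of values in every library (tolerance 0.01). Every gene tested had at least 25 reads over the libraries.

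Differences and slopes were fitted on the log2-scale values with limma 3.58.1 (R 4.3.3) with a mean-variance trend, as two-sided tests, and p-values were adjusted over all genes by the Benjamini-Hochberg method. The slope fit had Mcm6 and label as terms. P-values measure the spread between these mice. The closest pair of libraries, MEKi 1 and control 4, differed by 4.41 times counting noise, so no library was taken as a repeat. Both fits were checked on simulated data.

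Members named are the 8 with the highest level, the highest of each class and cluster, the 5 with the smallest p in each fit, the 3 read in every library with slopes nearest 0, and any under 10 reads in every library. The genes and lists were chosen with earlier results of these data known. Other histone genes with values in the text, H1f0, H3f3b and the overlapping gene Trim17 were added after their values were seen. Alternatives were the trend, moderation, scaling, filter, rows, voom, replicate block, cell markers and left-out libraries. Those without both control 2 and control 3, and with macrophage markers, were chosen after seeing the data.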

Additional observations from a re-analysis of the deposited data

Results flagged for a closer look

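Within a label, a library was marked where its gap to the nearest of the other 3 was too large a part of the range by Dixon's 95% critical value for 4 samples. Of 84 groups of values checked, chance marks about 1 in 20, and 5 were marked. Hist3h2a in MEKi libraries had its highest value in MEKi 4, at 7.54, where the nearest other MEKi library had 6.97. In control libraries, Hist1h4i had its lowest value in control 3, at 6.88, where the nearest had 7.19. The H1 class took 39.4% of histone reads in MEKi 4, where the nearest other MEKi library had 33.1%. The mean of the T cell marker list in control 4 was 9.20, against 8.23 in the nearest control library. The mean of the erythroid marker list in MEKi 3 was 10.41, against 7.34 in the nearest MEKi library. What sets these libraries apart was not tested.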

How the results depend on the processing

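The count of canonical histone genes called was 0 under all 18 alternatives of the label comparison and all 21 of the slope fit, and the count of all genes called in the slope fit was 0 under all 21. In the label comparison, 1 gene was called in all. That count was 0 with the 75% of genes with the highest mean, 0 with the replicate block, 0 with acinar markers as a covariate and 4 without both control 2 and control 3, and it ran from 0 to 2 over the fits that left out 1 library. The cause was not tested. The median label difference of the histone genes ran from -0.10 to -0.02 over left-out libraries and from -0.10 to 0.01 over other settings. Their median slope ran from -0.11 to 0.25 and from -0.13 to 0.20. With limma voom on the recovered reads, the median of all genes shifted to 0.12 in the label comparison and 0.15 in the slope fit, beside 0.01 and 0.20 for the histone genes, and 1 gene was called between labels. With the S-phase mean in place of Mcm6 the median histone slope was -0.09. The S-phase list had 8 to 27 slopes at an unadjusted p under 0.05 over 20 alternatives. Genes read in every library numbered 13 at a minimum of 5 reads and 5 at 20, against 8 at 10. The difference in the histone share of reads, 0.000239 percentage points, was -2.33e-05 with acinar genes out of the denominator, -0.000106 without MEKi 4 and 0.000756 without control 4. No pairing by replicate number was seen over all genes. Same-numbered libraries correlated at -0.33, 0.20, -0.46 and 0.02 in their deviations from the label means, and 1 of 4 pairs matched best with its own number. The labels name no litter or day, so a pairing by these was not tested. With the replicate block the median histone difference stayed at -0.07 and no histone gene was called. Low counts limit what can be seen for most of the 20 genes.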

Other observations

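Small nucleolar and small Cajal body RNA genes, another class of RNA without poly(A) tails, were looked up after the histone values had been seen. The 30 such genes in the table together took 513 to 813 reads in MEKi libraries, against 471 to 754 in control libraries, fewer than the canonical histone genes in each. Rn7sk, which is also made without a poly(A) tail, had 32 to 116 reads per library.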
